A study of Mus musculus with 22 samples.

Results

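The 10 genes described here encode enzymes of de novo nucleotide synthesis and of mitochondrial one-carbon metabolism: Ppat, Gart, Paics, Adsl, Atic, Impdh2, Cad, Umps, Mthfd2 and Shmt2. They were chosen by gene symbol from a table of normalized read counts, and all 10 were present among its 11208 genes. The cells were NIH/3T3, a line of mouse fibroblasts, carrying a stably integrated doxycycline-inducible construct that held either E2F1, a transcription factor of the G1/S transition, or nothing (empty vector, EV). The number of clones behind each line is not stated in the labels. Before any addition, every culture spent 48 h in 0.25% serum; polyA RNA was sequenced. The E2F1 line was sampled at 0, 2, 6 and 12 h of 500 ng/ml doxycycline, as was the EV line. EV cells were also sampled at 2, 6 and 12 h after addition of 10% serum, without doxycycline. Each of the 11 groups had 2 libraries, 22 in all. The labels do not say that these came from separate cultures, so the p-values below measure the spread between these libraries, which may be technical.

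De novo purine synthesis builds the purine ring stepwise on phosphoribosyl pyrophosphate (PRPP) until inosine monophosphate (IMP) is formed, from which AMP and GMP are made. Pyrimidine synthesis builds its ring first and attaches the ribose phosphate afterwards, ending at uridine monophosphate (UMP). Both pathways draw on one-carbon units or amino acids: mitochondrial Shmt2 takes a one-carbon unit from serine, and Mthfd2 oxidises the folate that carries it on the way to formate, which is used in the cytosol for purine ring and thymidylate synthesis. Starved fibroblasts make little new DNA, and re-entry into the cell cycle is a textbook setting in which demand for nucleotides grows.

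Ppat and Paics form a head-to-head pair: in the GRCm38 assembly (GENCODE M21 annotation) Ppat lies on the minus strand of chromosome 5 at 76913249-76951578 and Paics on the plus strand at 76951307-76967509. Their annotated 5′ ends overlap by 272 bases. The RefSeq promoter windows, from 250 bases before to 50 bases after each start, are printed for this pair because its 2 genes share a start region yet differed in level and response. They are also printed for Mthfd2, which spanned the widest range of levels, and for Impdh2, which spanned the narrowest. The GENCODE gene of Mthfd2 covers 83305691-83325908 on the minus strand of chromosome 6. Its RefSeq window therefore lies inside that gene and not at the GENCODE 5′ end. Each is written 5′ to 3′ on the strand of its gene, from the reference genome of RefSeq GRCm38.p6 and not from NIH/3T3 DNA. Capitals mark letters that match 1 of 4 kinds of motif searched on both strands: the E-box CACGTG, the E2F letters TTTCCCGC, TTTGGCGC, TTTCGCGC or TTTGCCGC, the C/EBP-ATF letters TGATGNAA, and CCAAT.
Ppat, chr5:76951529-76951828, minus strand: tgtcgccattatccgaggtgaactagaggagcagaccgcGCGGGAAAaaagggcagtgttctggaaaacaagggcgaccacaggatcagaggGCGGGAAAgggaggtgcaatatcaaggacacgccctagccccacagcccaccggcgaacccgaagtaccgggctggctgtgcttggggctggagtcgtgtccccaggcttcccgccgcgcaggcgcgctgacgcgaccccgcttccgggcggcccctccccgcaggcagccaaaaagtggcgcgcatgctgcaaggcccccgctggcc
Paics, chr5:76951052-76951351, plus strand: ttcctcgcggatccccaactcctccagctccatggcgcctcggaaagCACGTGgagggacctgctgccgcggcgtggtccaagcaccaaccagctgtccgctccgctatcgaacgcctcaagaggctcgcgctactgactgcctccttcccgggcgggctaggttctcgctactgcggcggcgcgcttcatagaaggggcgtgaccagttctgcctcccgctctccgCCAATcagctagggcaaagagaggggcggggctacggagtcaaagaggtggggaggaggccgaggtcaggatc
Mthfd2, chr6:83317555-83317854, minus strand: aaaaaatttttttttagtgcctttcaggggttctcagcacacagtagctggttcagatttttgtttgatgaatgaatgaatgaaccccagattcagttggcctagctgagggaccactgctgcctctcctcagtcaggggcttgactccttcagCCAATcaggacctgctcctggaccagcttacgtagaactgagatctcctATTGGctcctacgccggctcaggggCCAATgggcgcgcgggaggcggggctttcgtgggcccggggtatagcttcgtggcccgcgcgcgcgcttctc
Impdh2, chr9:108560186-108560485, plus strand: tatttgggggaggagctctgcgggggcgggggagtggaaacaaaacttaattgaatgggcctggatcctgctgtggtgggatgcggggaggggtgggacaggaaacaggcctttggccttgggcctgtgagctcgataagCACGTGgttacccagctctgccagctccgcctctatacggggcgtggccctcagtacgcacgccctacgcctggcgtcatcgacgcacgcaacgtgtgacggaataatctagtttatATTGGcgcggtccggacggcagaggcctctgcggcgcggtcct

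The Ppat window held the E2F letters at 2 places on the reverse strand, starting 211 and 158 bases before the start, and the Ppat and Paics windows were separated by 177 bases. Among the 10 genes, 1 held the E2F letters, against 2.3% of 32851 promoters. The E-box was in 3 windows, those of Paics, Atic and Impdh2, against 7.2% of all promoters. CCAAT was in 5 windows, with 3 matches in that of Mthfd2, against 37.4%. TGATGNAA was in 0 of the 10 windows and in 4.0% of all promoters. A match is a description of letters in a window and not a measured site.

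Totals ranged from 34014608 to 46057140 normalized counts per library, and the lowest of the 10 genes had a mean above that of 56.8% of all genes, so depth did not limit their detection. All 8 fibroblast markers were in the table, with a sum of 417328 to 1025724 per library, while 0 of 5 epithelial, 0 of 4 endothelial and 0 of 4 muscle markers were listed and 1 of 5 immune markers was (Csf1r, 33 to 735). In E2F1 cells mouse E2f1 was 1703 and 1637 at 0 h, against 3806 and 3602 after 6 h of doxycycline. Reads of the construct need not be counted under that gene, so this is a limited check of the labels. The G1/S cyclin Ccne1 was 666 and 544 at 0 h and 10461 and 9521 at 6 h in the same line. The Y-linked gene Ddx3y separated the lines at 0 h, with 580 and 521 in E2F1 cells against 9 and 4 in EV cells. EV libraries stood at 103 and 71, 31 and 18, and 9 and 4 at 2, 6 and 12 h of doxycycline, and at 132 and 170, 48 and 35, and 29 and 19 at 2, 6 and 12 h of serum. In E2F1 cells it stood at 329 and 316 at 2 h, 415 and 435 at 6 h, and 546 and 446 at 12 h. All EV groups except 12 h of doxycycline were thus above the EV 0 h level, most so at 2 h, and its part in the results was not tested. Counts of changed genes at 6 and 12 h were recomputed without the 2 h libraries, which leaves the smaller differences at 6 h and at 12 h of serum in place.

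**Figure D1:**
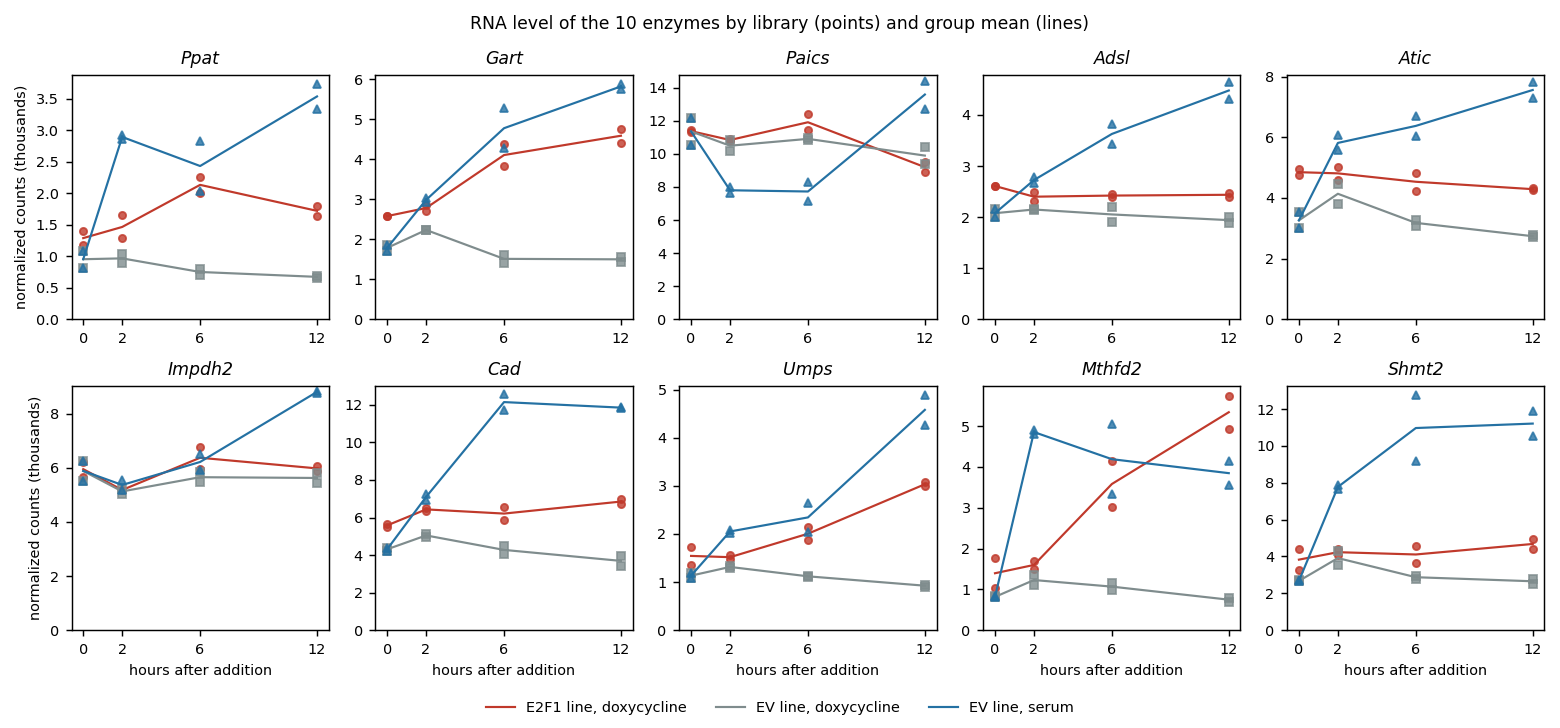
Normalized counts (vertical axis from 0, units as labelled) of the 10 enzyme genes against hours after doxycycline or serum was added (horizontal axis). Points are single libraries and lines join the means of 2, with E2F1 doxycycline in red, EV doxycycline in grey and EV serum in blue; the serum series starts from the EV libraries at 0 h. Mthfd2 is the only panel in which the red points at 12 h, 5743 and 4939, lie above both blue ones, 4145 and 3550.

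Per kilobase of annotated exon, Paics had the highest level of the 10 genes, with a median over the 11 group means of 3455 normalized counts per kb, followed by Impdh2 with 1911 and Shmt2 with 1321. Ppat, which catalyses the committed step of the purine ring, had the lowest at 330.9 per kb. Between these lay Cad at 758.9, Atic at 567.9, Gart at 540.5, Mthfd2 at 458.3, Umps at 443.0 and Adsl at 429.7 per kb. The 2 genes with the highest level per kb also spanned the narrowest ranges over the 22 libraries: the highest library was 1.761 times the lowest for Impdh2 and 2.015 times for Paics. The range was 8.228-fold for Mthfd2, 5.718-fold for Ppat, 5.424-fold for Umps and 5.093-fold for Shmt2. Gart, Cad, Atic and Adsl lay between, from 4.185-fold down to 2.466-fold.

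Doxycycline in the E2F1 line raised part of the set and left the rest near its starting level. At 6 h, 4 of the 10 genes rose (Mthfd2, Ppat, Gart and Umps) and 0 fell. At 12 h, 5 rose (these 4 and Cad) and 1, Paics, fell. The median log2 change of the 10 genes was 0.13 at 6 h and 0.30 at 12 h, against -0.03 and -0.02 over all genes. The tests were limma moderated tests on log2(normalized count + 1) over all 22 libraries with Benjamini-Hochberg adjustment over 11208 genes and a threshold of 0.05, and all fold changes are on that scale. Across all genes, 51.7% were called at 6 h and 61.5% at 12 h, with 28.8% and 31.8% called higher and 22.9% and 29.7% lower, so the share of the 10 that changed was near or below that of the whole table. Without the 2 h libraries the counts at 6 and 12 h were again 4 and 6. At 2 h limma called 0 of the 10 (1.86% of all genes, 0.865% higher and 0.99% lower), with 2 at an unadjusted p under 0.05.

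Serum moved nearly the whole set upward. At 2 h and at 6 h, 8 of 10 genes rose and 1, Paics, fell, with Impdh2 not called. At 12 h all 10 passed the test as higher, with fold changes from 1.197 for Paics to 4.703 for Mthfd2. The median log2 change of the 10 was 0.79, 1.19 and 1.58 at 2, 6 and 12 h, against 0.03, 0.03 and 0.05 over all genes. Of all genes 37.5%, 36.5% and 36.0% were called higher at these times, 33.5%, 31.0% and 29.7% lower, and 70.9%, 67.5% and 65.7% in either direction. Without the 2 h libraries the counts at 6 and 12 h were again 9 and 10. The part of Ddx3y, given above, in the serum results was not tested. Scaling the libraries to equal totals shifted the log2 change of the median gene by -0.3743 at 2 h of serum, -0.2141 at 6 h and -0.0812 at 12 h. For genes called at 2 h, sizes are given below with that scaling where they moved by over 1.5 times. Impdh2, not called at 2 h, was -0.13 log2, smaller in size than that shift, and its value with equal totals is not reported here. The counts at 2 h are those of the deposited scaling.

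Doxycycline alone, in the EV line, gave 2 limma calls at 2 h, Atic and Shmt2 (7.35% of all genes called, 4.93% higher and 2.43% lower). It gave 0 of 10 at 6 h (0.134% of all genes) and 0 at 12 h (4.17%, 0.749% higher and 3.42% lower). At 6 h 1 gene and at 12 h 6 of the 10 had an unadjusted p under 0.05, and all 10 estimates at 12 h were below 0, from -0.49 to -0.01 log2, with adjusted p from 0.1 to 0.98. The median at 12 h was -0.21 log2 for the 10 and 0.0017 over all genes. The shares of all genes with an unadjusted p under 0.05, or with an estimate below 0, were not counted in any comparison. The 2 h calls were small, 0.34 log2 for Atic (adjusted p = 0.0378) and 0.54 for Shmt2 (adjusted p = 0.0373). They came from the libraries in which Ddx3y read 103 and 71, and its part in them was not tested. Without EV 0 h replicate 1 these were 0 of 10, as without EV 2 h replicate 2 or without a mean-variance trend in the fit, and without EV 0 h replicate 2 the count was 1. Without EV 0 h replicate 1 the 12 h count was 1.

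**Figure D2:**
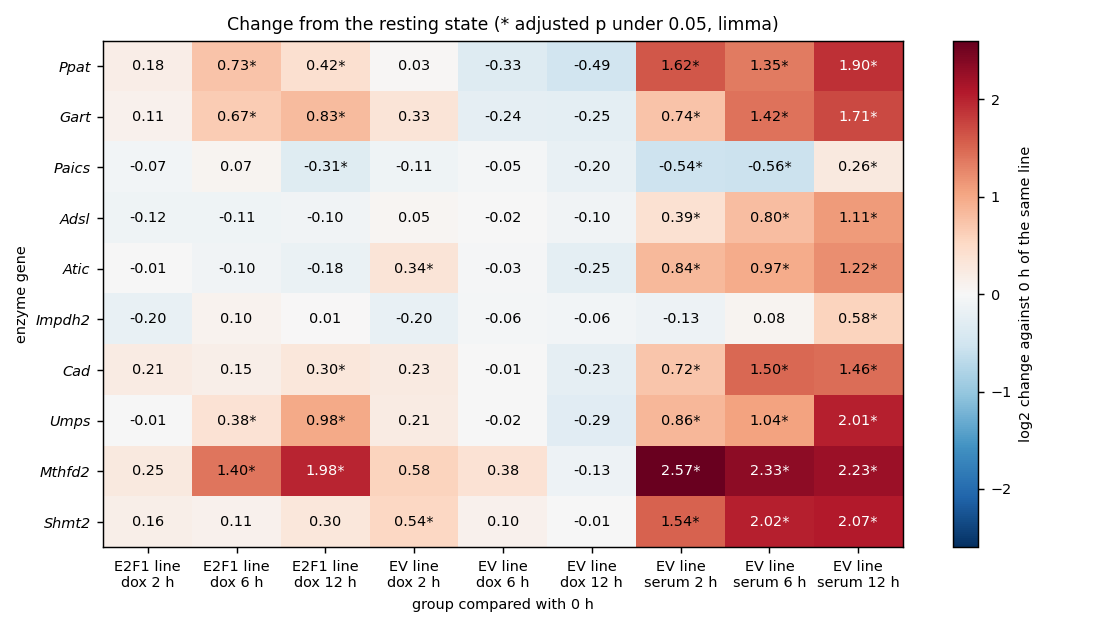
Log2 change against 0 h of the same line (colour and printed value) for the 10 enzyme genes (rows) in 9 groups (columns: E2F1 line with doxycycline, EV line with doxycycline, EV line with serum, each at 2, 6 and 12 h). An asterisk marks an adjusted p under 0.05 in limma; the serum columns carry 9, 9 and 10 asterisks and the EV doxycycline columns 2, 0 and 0.

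Ppat, the amidophosphoribosyltransferase that commits PRPP to purine synthesis, in E2F1 cells read 1400 and 1172 normalized counts at 0 h, 1281 and 1645 at 2 h, 2253 and 2009 at 6 h, and 1797 and 1640 at 12 h. In EV cells it read 818 and 1084 at 0 h and 652 and 690 after 12 h of doxycycline. With serum it read 2920 and 2862 at 2 h, 2823 and 2037 at 6 h, and 3728 and 3340 at 12 h. Both E2F1 libraries at 6 and 12 h lay above both at 0 h, and all 6 serum libraries lay above every other EV library. The E2F1 change was 0.73 log2 at 6 h (1.66-fold, SE 0.16, limma adjusted p = 0.00095) and 0.42 at 12 h (1.34-fold, adjusted p = 0.0285). The 12 h call was lost with quantile normalization, with equal totals, and without E2F1 0 h replicate 2 or E2F1 12 h replicate 1 (highest adjusted p = 0.216). Serum raised Ppat by 1.62 log2 at 2 h, 1.35 at 6 h and 1.90 at 12 h (3.744-fold at 12 h, adjusted p = 1.21e-08).

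Gart, a trifunctional enzyme of purine ring assembly, rose in both systems. In the E2F1 line its libraries read 2571 and 2586 at 0 h, 2694 and 2867 at 2 h, 4388 and 3824 at 6 h, and 4417 and 4761 at 12 h. EV libraries read 1700 and 1866 at 0 h, then 2936 and 3032, 5275 and 4280, and 5896 and 5750 at 2, 6 and 12 h of serum. No E2F1 or serum group at 6 or 12 h overlapped its 0 h group. The E2F1 change was 0.67 log2 at 6 h (1.588-fold, limma adjusted p = 2e-05) and 0.83 at 12 h (1.778-fold, SE 0.10, adjusted p = 1.05e-06). The serum change was 0.74, 1.42 and 1.71 log2 at the same successive times (3.268-fold at 12 h, adjusted p = 1.8e-10), the first of these 0.37 with equal totals. An annotated antisense gene, Gm15964, overlaps 19.71% of the Gart exon length, and whether counting used strand is not given in the sources used here, so Gart is uncertain to that extent.

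Paics, which joins the carboxylase and the succinocarboxamide synthetase steps of the ring, moved differently from its neighbour Ppat. In the E2F1 line it read 11420 and 11341 at 0 h, 11430 and 12406 at 6 h, and 8902 and 9502 at 12 h. In EV cells it read 10554 and 12175 at 0 h, 7984 and 7618 at 2 h of serum, 8287 and 7166 at 6 h, and 14443 and 12749 at 12 h. The serum libraries were thus below both starting libraries at 2 and 6 h and above both at 12 h. Serum lowered Paics by -0.54 log2 at 2 h (SE 0.09, limma adjusted p = 2.82e-05) and -0.56 at 6 h (adjusted p = 2.42e-05), and with equal totals the 2 h value was -0.91. From 6 to 12 h of serum it rose by 0.82 log2 (adjusted p = 1.15e-06). The net 12 h rise of 0.26 log2 (adjusted p = 0.0162) was lost with quantile normalization, with equal totals, with a fit restricted to the groups compared, and without EV 0 h replicate 1 (0.16) or EV serum 12 h replicate 1 (0.17), with a highest adjusted p of 0.358. In the E2F1 line the 12 h value was -0.31 log2 (adjusted p = 0.00617, and 0.0574 without E2F1 12 h replicate 1), but in EV cells 12 h of doxycycline gave -0.20, and the difference of the 2 changes was -0.11 (adjusted p = 0.491, 95% interval -0.38 to 0.15).

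The ratio of Ppat to Paics normalized counts makes the contrast within the head-to-head pair visible in each library. It was 0.0775 and 0.0890 in EV cells at 0 h, 0.366 and 0.376 at 2 h of serum, 0.341 and 0.284 at 6 h, and 0.258 and 0.262 at 12 h. In the E2F1 line it was 0.123 and 0.103 at 0 h, 0.197 and 0.162 at 6 h, and 0.202 and 0.173 at 12 h. With doxycycline in the EV line it stayed between 0.0642 and 0.0956 at 2, 6 and 12 h. All 6 serum libraries had a higher ratio than all 8 E2F1 libraries, and the E2F1 ratios at 6 and 12 h did not overlap those at 0 h. The shared 5′ stretch is 6.15% of Ppat and 8.67% of Paics exon length, so a small part of the reads of 1 gene could be counted under the other if strand was not used.

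The last enzymes of the route to IMP responded to serum and were not called in the E2F1 line. Adsl, the adenylosuccinate lyase used both in ring synthesis and in making AMP, read 2614 and 2603 at 0 h and 2393 and 2480 at 12 h in the E2F1 line (-0.10 log2, limma adjusted p = 0.313). Its EV libraries went from 2003 and 2149 to 2792 and 2658, 3828 and 3429, and 4305 and 4654 at 2, 6 and 12 h of serum. Atic, the bifunctional enzyme that closes the ring, read 4943 and 4759 at 0 h and 4262 and 4319 at 12 h in the E2F1 line (-0.18 log2, adjusted p = 0.121), and 2997 and 3525 at 0 h against 7818 and 7309 at 12 h of serum. At 12 h of serum the rises were 1.11 log2 for Adsl (2.157-fold, adjusted p = 3.01e-09) and 1.22 for Atic (2.325-fold, adjusted p = 6.2e-09), and no serum library of either gene overlapped the 0 h libraries. The Adsl rise at 2 h, 0.39 log2, was 0.02 with equal totals and 0.13 with quantile normalization and then not called (highest adjusted p = 0.856), and the Atic rise of 0.84 was 0.46 with equal totals.

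Impdh2, the rate-limiting enzyme of guanine nucleotide synthesis, was the least variable gene of the 10. It read 6221 and 5675 at 0 h, 6769 and 5968 at 6 h, and 5872 and 6079 at 12 h in the E2F1 line, and these libraries overlap. At 2 h of doxycycline it read 5194 and 5161 in the E2F1 line and 5228 and 5022 in EV cells. In each line both 2 h libraries lay below both at 0 h, by -0.20 log2, and neither change was called (limma adjusted p = 0.263 and 0.161). EV libraries read 5511 and 6251 at 0 h, 5547 and 5180 at 2 h and 6511 and 5915 at 6 h of serum, which also overlap. The change at 2 h of serum was -0.13 log2 (limma adjusted p = 0.166). With equal totals the median gene shifted by -0.3743 at that time, more than this value in size. At 12 h of serum both stood higher, at 8758 and 8846, a change of 0.58 log2 (1.5-fold, SE 0.08, limma adjusted p = 7.01e-06), and 0.37 with quantile normalization. Impdh2-ps, a processed pseudogene in the same table, had the pattern most like it over the 11 groups (r = 0.97), and reads shared between the 2 could be split by the counting, so Impdh2 is uncertain to that extent.

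Among the pyrimidine genes, Cad, which joins the opening steps of the pathway in a single protein, read 5644 and 5517 at 0 h, 6338 and 6529 at 2 h, 6540 and 5880 at 6 h, and 7000 and 6701 at 12 h in the E2F1 line. In EV cells it read 4221 and 4395 at 0 h, 6923 and 7277 at 2 h of serum, 11725 and 12576 at 6 h, and 11813 and 11897 at 12 h. Its serum rise was thus reached by 6 h: 0.72, 1.495 and 1.46 log2 at the 3 times (2.752-fold at 12 h, limma adjusted p = 9.55e-11), with 0.35 at 2 h under equal totals. The E2F1 rise was 0.15 log2 at 6 h (adjusted p = 0.114) and 0.30 at 12 h (1.227-fold, adjusted p = 0.00337), the latter 0.11 and not called with quantile normalization (adjusted p = 0.205).

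Umps, which makes UMP from orotate, rose from 6 h in the E2F1 line and from 2 h with serum, with a further rise from 6 to 12 h in both. It read 1731 and 1356 at 0 h, 2145 and 1865 at 6 h, and 3079 and 2988 at 12 h in the E2F1 line. EV libraries read 1081 and 1185 at 0 h, 2077 and 2026 at 2 h of serum, 2638 and 2050 at 6 h, and 4887 and 4273 at 12 h. The E2F1 change was 0.38 log2 at 6 h and 0.98 at 12 h (1.979-fold, SE 0.12, limma adjusted p = 1.59e-06), and the step from 6 to 12 h was 0.60 (adjusted p = 0.00104). The 6 h call (adjusted p = 0.0134) was lost with quantile normalization (0.23 log2), with equal totals, and without E2F1 0 h replicate 2 (0.21) or E2F1 6 h replicate 1, with a highest adjusted p of 0.227. Serum gave 0.86, 1.04 and 2.01 log2 (4.035-fold at 12 h, adjusted p = 2.81e-10), the 2 h value being 0.48 with equal totals, and 0.97 from 6 to 12 h. An antisense gene, Gm15829, overlaps 6.11% of the Umps exon length.

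The 2 mitochondrial one-carbon genes parted in the E2F1 line. Mthfd2 read 1763 and 1026 at 0 h, 1508 and 1688 at 2 h, 4135 and 3029 at 6 h, and 5743 and 4939 at 12 h. In EV cells it read 804 and 826 at 0 h, 1111 and 1345, 986 and 1147, and 795 and 698 at 2, 6 and 12 h of doxycycline, and 4893 and 4816, 3325 and 5055, and 4145 and 3550 at 2, 6 and 12 h of serum. With serum the level was thus high from 2 h on, whereas in the E2F1 line it stepped up at 6 h and again at 12 h. The E2F1 change was 1.40 log2 at 6 h (2.63-fold, limma adjusted p = 2.56e-05) and 1.98 at 12 h (3.958-fold, SE 0.21, adjusted p = 2.71e-07), and 0.59 from 6 to 12 h (adjusted p = 0.0377). The 6 to 12 h step was lost under 6 alternatives, among them without E2F1 6 h replicate 2 (0.37 log2), without either 12 h library, and without the 2 h libraries (highest adjusted p = 0.302). Serum gave 2.57, 2.33 and 2.23 log2 at 2, 6 and 12 h (adjusted p = 3.86e-09 at 2 h).

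Shmt2 read 4410 and 3245 at 0 h, 4580 and 3635 at 6 h, and 4949 and 4408 at 12 h in the E2F1 line, and its 6 h and 12 h values were 0.11 log2 (limma adjusted p = 0.567) and 0.30 (adjusted p = 0.0912). In EV cells it read 2645 and 2698 at 0 h, 3527 and 4296 at 2 h of doxycycline, 7894 and 7654 at 2 h of serum, 9178 and 12767 at 6 h, and 11883 and 10545 at 12 h. All 6 serum libraries lay above the highest of the other 16, 4949. The serum rise was 1.54, 2.02 and 2.07 log2 at 2, 6 and 12 h (4.189-fold at 12 h, adjusted p = 2.52e-09). At 12 h the difference between the E2F1 and the serum change was -1.76 log2 for Shmt2 (95% interval -2.22 to -1.31) and -0.25 for Mthfd2 (-0.88 to 0.38).

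The E2F1 change was tested against the EV change under the same doxycycline schedule, so that both arms had received the agent. By limma, 3 of the 10 genes rose more in E2F1 cells at 6 h (34.5% of all genes called, 22.2% higher and 12.3% lower). At 12 h, 5 did (50.5% called, 27.3% higher and 23.3% lower), and 0 were lower at either time. At 12 h these were Mthfd2 (difference of log2 changes 2.11, 95% interval 1.49 to 2.74), Umps (1.28), Gart (1.08), Ppat (0.91) and Cad (0.52, interval 0.29 to 0.76), with adjusted p from 4.58e-06 to 0.00255. At 6 h they were Ppat (1.07), Mthfd2 (1.01, adjusted p = 0.0137) and Gart (0.91). The EV changes that enter these differences were not called. At 12 h the EV changes were -0.49 log2 for Ppat, -0.29 for Umps, -0.25 for Gart, -0.23 for Cad and -0.13 for Mthfd2. At 6 h they were -0.33 for Ppat, -0.24 for Gart and 0.38 for Mthfd2. An EV change below 0 adds to the difference without a rise in E2F1 cells. The Mthfd2 call at 6 h was lost without E2F1 0 h replicate 2 (0.62), without E2F1 6 h replicate 1 and without EV 6 h replicate 1 (highest adjusted p = 0.0993). The other 5 genes were not called at 12 h, and their intervals bound the difference: -0.25 to 0.25 for Adsl, -0.22 to 0.36 for Atic, -0.18 to 0.32 for Impdh2, -0.38 to 0.15 for Paics and -0.14 to 0.77 for Shmt2. At 2 h limma called 0 of 10 (0.143% of all genes, 0.0535% higher and 0.0892% lower), with 1 at an unadjusted p under 0.05. The counts at 6 and 12 h were again 3 and 5 without the 2 h libraries.

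Against the serum change, the E2F1 change was smaller for 9 of 10 genes at 12 h (48.8% of all genes called, 23.8% lower and 25.0% higher), and Mthfd2 was the gene not called (adjusted p = 0.518 by limma). The differences of the 9 ran from -0.57 for Paics and -0.58 for Impdh2 to -1.48 for Ppat and -1.76 log2 for Shmt2, with adjusted p from 1.97e-07 to 0.00119. At 6 h, 8 were smaller and Paics was larger (0.62, adjusted p = 0.000382), with 57.9% of all genes called, 30.3% higher and 27.6% lower. The Ppat and Mthfd2 calls (-0.62, adjusted p = 0.026, and -0.93, adjusted p = 0.0123) were each lost on leaving out single libraries: Ppat was -0.38 without EV serum 6 h replicate 1 and Mthfd2 -0.54 without E2F1 0 h replicate 1. At 2 h, 8 were smaller and Paics larger (56.7% called, 26.6% higher and 30.2% lower), and with equal totals the calls for Gart (-0.26), Adsl (-0.14) and Cad (-0.14) were lost. The E2F1 and the serum comparison start from different 0 h libraries, and the serum and the EV doxycycline comparison share theirs. The serum cells received no doxycycline, so line, doxycycline and stimulus differ together in these contrasts and cannot be told apart. In EV cells the 12 h doxycycline estimates of the 10 genes ran from -0.49 to -0.01 log2, with no call.

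**Figure D3:**
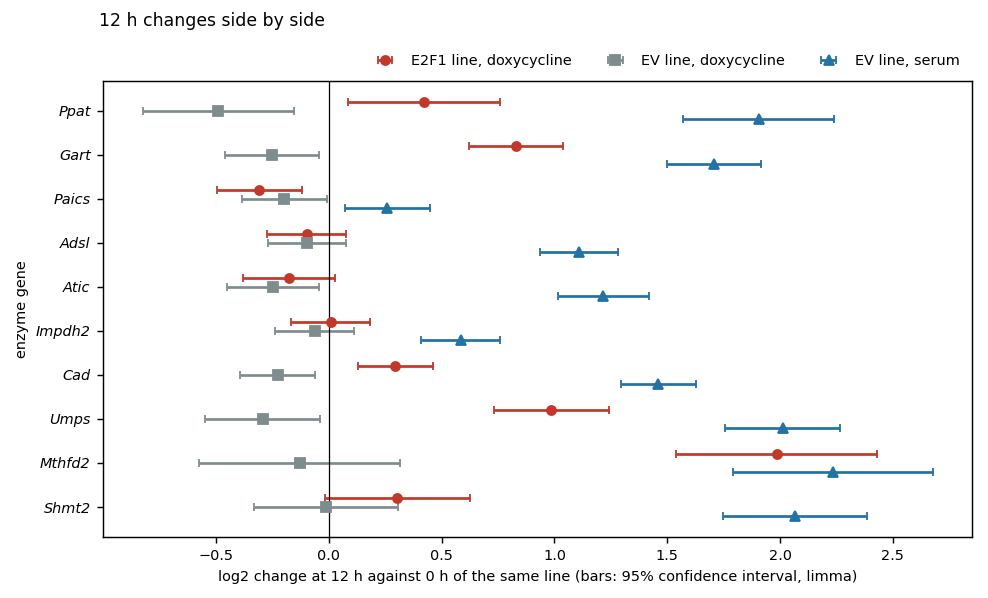
Log2 change at 12 h against 0 h of the same line (horizontal axis) for each of the 10 genes (vertical axis), with 95% confidence intervals from limma, for the E2F1 line with doxycycline (red circles), the EV line with doxycycline (grey squares) and the EV line with serum (blue triangles). The red and blue intervals overlap for Mthfd2, at 1.98 and 2.23, and are apart for the other 9 genes.

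The lines differed before anything was added. At 0 h limma called 7 of the 10 genes higher in E2F1 cells than in EV cells (15.0% of all genes called, 8.86% higher and 6.17% lower): Mthfd2 (0.72 log2, adjusted p = 0.0284), Atic (0.58), Gart (0.53), Shmt2 (0.50), Umps (0.44), Cad (0.37) and Adsl (0.33). Ppat was 0.44 (adjusted p = 0.0687), and Paics and Impdh2 were 0.01 and 0.02. The calls for Gart, Atic and Cad held under every alternative. Without E2F1 0 h replicate 1 or without EV 0 h replicate 1 the count was 3, and without the former Mthfd2 was 0.33, Shmt2 0.28 and Umps 0.26. The line and the construct cannot be told apart in this difference. In bulk RNA, a change of level per cell and a change in the share of cells that carry the transcript cannot be told apart either.

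The order of the groups by level placed serum groups first for 9 of the 10 genes. For Mthfd2 the E2F1 line at 12 h came first, with a group mean of 5341, and its 2 libraries did not overlap those of the next group, EV serum at 2 h with 4855. A library of 6 h serum, at 5055, lay between its 2 libraries, and neighbouring serum groups overlapped. For Umps the E2F1 line at 12 h, at 3034, came second to 12 h of serum, at 4580, and above 6 h of serum, at 2344, with no overlap on either side. For Gart it stood at 4589, below 12 h of serum and overlapping 6 h of serum at 4778. For Cad the 6 h and 12 h serum groups overlapped at the top, at 12151 and 11855. For 8 of the 10 genes, all but Paics and Impdh2, the lowest group was the EV line after 12 h of doxycycline.

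Within the serum course the genes moved at different steps. From 2 to 6 h, 5 of 10 rose (48.5% of all genes called by limma, 24.3% higher and 24.3% lower): Cad (0.77 log2), Gart (0.67), Shmt2 (0.48), Adsl (0.41) and Impdh2 (0.21, adjusted p = 0.0424). The Impdh2 call was lost under 8 of 31 alternatives, among them no trend, a fit restricted to the groups compared, and leaving out EV serum 2 h replicate 1, EV serum 2 h replicate 2 or EV serum 6 h replicate 1 (highest adjusted p = 0.26). From 6 to 12 h, 6 rose (39.9% called, 19.3% higher and 20.6% lower): Umps (0.97), Paics (0.82), Ppat (0.56), Impdh2 (0.50), Adsl (0.30) and Gart (0.29). Without EV serum 6 h replicate 2 the second count was 3 and Ppat was 0.32, Gart 0.14 and the 2 to 6 h step of Shmt2 0.24. Gart was 0.44 without EV serum 6 h replicate 1, and without EV serum 2 h replicate 2 the first count was 3. From 6 to 12 h of doxycycline in the E2F1 line, 2 rose, Umps and Mthfd2, and Paics fell (-0.37 log2, adjusted p = 0.00375), with 35.3% of all genes called, 15.1% higher and 20.2% lower.

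Other genes of the same pathways, taken from lists by pathway, were counted in the same fit. Pfas, the remaining enzyme of the purine ring, rose by 1.14 log2 at 12 h in the E2F1 line (2.206-fold, limma adjusted p = 1.62e-08). After 12 h of serum it rose by 1.78. Between IMP and AMP or GMP, 5 of 9 other genes rose and 3 fell at 12 h in the E2F1 line. Of all genes, 31.8% were called higher and 29.7% lower. With serum 7 rose and 0 fell (36.0% and 29.7% of all genes). Gmps, GMP synthetase, rose in both, by 0.40 and 1.03 log2. Impdh1, the second IMP dehydrogenase, fell by 0.70 in the E2F1 line and rose by 0.81 with serum, a difference of -1.52 (adjusted p = 7.89e-08). Ak4, an adenylate kinase, rose by 0.57 and 1.24.

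Of 6 other pyrimidine genes, 2 rose and 0 fell at 12 h in the E2F1 line (31.8% and 29.7% of all genes). With serum 5 rose and 1 fell (36.0% and 29.7% of all genes). Ctps, CTP synthase, rose by 0.63 and 1.56 log2 in the 2 systems, and Cmpk1, a UMP/CMP kinase, by 0.72 and 0.43. Nme1, a nucleoside diphosphate kinase, was -0.03 in the E2F1 line (limma adjusted p = 0.873) and rose by 1.78 with serum. Dhodh, the mitochondrial enzyme between Cad and Umps, was 0.16 in the E2F1 line (adjusted p = 0.397) and rose by 0.70 with serum.

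Of 17 other folate one-carbon genes, 7 rose and 7 fell at 12 h in the E2F1 line, whereas 12 rose and 3 fell with serum. Of all genes, 31.8% were called higher and 29.7% lower in the E2F1 line, and 36.0% and 29.7% with serum. Those that rose in the E2F1 line included Tyms, thymidylate synthase (2.59 log2, limma adjusted p = 1.18e-09), Shmt1, the cytosolic counterpart of Shmt2 (1.67), and Mthfd1l (1.25) and Mthfd1 (0.81), which handle formate. With serum at 12 h these 4 rose by 1.85, 2.51, 1.83 and 1.91 log2. Of 12 serine and glycine supply genes, 3 rose and 4 fell in the E2F1 line and 6 rose and 4 fell with serum. The serine synthesis enzymes Phgdh, Psat1 and Psph were 0.26 (adjusted p = 0.0318), 0.44 (adjusted p = 0.028) and 0.35 (adjusted p = 0.203) in the E2F1 line, and rose by 1.14, 0.63 and 1.23 with serum. Sfxn3, a sideroflexin of the mitochondrial membrane, fell in both, by -1.56 and -1.29. Slc1a4, a neutral amino acid carrier, fell by -0.97 in the E2F1 line, and Amt, of the glycine cleavage system, fell by -1.65 with serum.

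Over all 84 other genes of the 9 lists, 35 rose and 28 fell at 12 h in the E2F1 line (31.8% and 29.7% of all genes), and 57 rose and 14 fell at 12 h of serum (36.0% and 29.7%), with medians of 0.03 and 0.71 log2 against -0.02 and 0.05 over all genes. After 12 h of doxycycline in the EV line, 1 of the 84 rose and 5 fell (0.749% and 3.42% of all genes). The PRPP synthetase list held Prps1, Prps2 and Prps1l3 and the synthetase-associated proteins Prpsap1 and Prpsap2. Of these 5 genes, 3 rose and 1 fell in the E2F1 line and 3 rose and 0 fell with serum. In the E2F1 line Prps2 read 1541 and 1389 at 0 h and 2034 and 2100 at 12 h. Prpsap1 read 2339 and 2185 at 0 h and 1699 and 1497 at 12 h. Prps1 rose by 0.79 and 1.13 log2 and Prps1l3 by 0.80 and 0.74.

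RNA of 2 transcription factors that textbooks tie to these enzymes is given as levels only. In E2F1 cells Myc read 2399 and 2434 at 0 h, 1348 and 1700 at 2 h, 2791 and 2166 at 6 h (0.02 log2 against 0 h, limma adjusted p = 0.901) and 1365 and 1116 at 12 h (-0.97, adjusted p = 2.43e-05). The EV line read 1723 and 1865 at 0 h and 1531 and 1291 after 12 h of doxycycline (-0.35 log2, adjusted p = 0.242), against 4343 and 4251 at 2 h of serum (1.26 log2). Atf4 was 0.22 log2 at 6 h (adjusted p = 0.0808) and 0.05 at 12 h in the E2F1 line (adjusted p = 0.658) and rose by 1.66 at 2 h of serum, from 7330 and 7244 to 23525 and 22389.

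Among the 10 genes themselves, Pearson r of the 11 group means (log2 scale) was 0.96 for Cad and Shmt2 and 0.95 for Adsl and Cad and for Gart and Umps, the highest 3 of the pairs. It was lowest for Paics, with -0.34 to Mthfd2, -0.28 to Shmt2 and -0.13 to its neighbour Ppat. Outside the set, the genes most like the mean pattern of the 10 were Hspd1 (r = 0.98), Mrpl12 (0.98), Uchl3 (0.98), Dars (0.98), Guk1 (0.98), Snrpa1 (0.97), Ogdh (0.97), Nup188 (0.97), Psmc2 (0.97) and Gm11560 (0.97). This choice depended on the scaling: 5 of these 10 were again among the 10 most alike with equal totals and 2 with quantile normalization. For single genes the nearest patterns were Ogdh for Ppat (0.98), Ipo11 for Gart (0.98), Tmem126a for Adsl (0.98), Klhdc4 for Atic (0.98), Pnpt1 for Cad (0.98), Mthfd1 for Umps (0.98), U2af2 for Mthfd2 (0.99) and Gfm1 for Shmt2 (0.99). These values describe 11 points that share libraries and scaling, and were chosen as the highest of all genes.

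In the authors' deposited tables of changed genes, which list only log2 changes of 2.0 or more in size at an adjusted p of at most 0.05, Mthfd2 appears for serum at 2, 6 and 12 h (2.59, 2.34 and 2.26), Shmt2 at 6 and 12 h (2.03 and 2.09) and Umps at 12 h (2.04). The authors' deposited tables for doxycycline in the E2F1 and EV lines list 0 of the 10. The lists differ in length, beside 11208 genes in the table used here. At 2, 6 and 12 h they hold 1268, 795 and 726 genes for serum. For doxycycline they hold 10, 264 and 510 in the E2F1 line and 37, 2 and 4 in the EV line. Mthfd2 at 12 h in the E2F1 line, 1.98 log2 in limma, lies just under the cutoff, so absence from a list does not mean no change.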

How the data were processed

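RNA of 22 libraries was measured by paired-end RNA-seq. The deposited table holds gene counts that the authors normalized and rounded to whole numbers, judged from its name and values and used here as a score and not as raw counts; the submitters' processing notes name FastQC, Trimmomatic, HISAT2, featureCounts and DESeq2 and the mm10 build, without versions or roles. The scaling method and the use of strand are not given in the sources used here. Adjusted p-values and log2 fold changes of the authors' own comparisons were copied from the deposited tables of changed genes, which name a serum 0 h group for the EV line; here the EV 0 h libraries served as that start.

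Groups came from the sample labels. After adding a pseudocount of 1 and taking log2, limma 3.58.1 (R 4.3.3) was fitted with 1 mean per group over all 22 libraries (11 residual degrees of freedom), a mean-variance trend, and Benjamini-Hochberg adjustment over 11208 genes at 0.05. A minimum of 10 in 2 libraries removed no gene. Doxycycline and serum courses were compared with 0 h of the same line, and differences of changes were tested as contrasts in that fit. On simulated data for the E2F1 12 h comparison, 199 of 200 genes changed 2-fold were recovered and 16 unchanged genes of the 11208 were called. The simulation gave every gene the same dispersion and changed only these 200. Both settings differ from the data, so it checks the fit and not the error rates here. Alternatives were a pseudocount of 8, no filter, a mean of at least 500 (8730 genes), quantile normalization, equal totals, a replicate block, only the groups compared, no trend, and leaving out each library. Leaving out the 4 libraries of 2 h doxycycline, or all 6 taken at 2 h, was added after seeing the data. The 10 genes and the pathway and marker lists were chosen with earlier results of these data known. Named genes are the 10, fixed pathway neighbours, the 2 called genes with the largest 12 h change in each list and system, the most alike genes, and E2f1, Ccne1, Myc and Atf4; Ddx3y and a few further genes in the closing section were named after their values were seen. A few genes that this rule names are not reported here. Positions are from GENCODE M21 (10977 of 11208 gene IDs matched with version) and promoters from RefSeq, all 10 genes matched by symbol. A RefSeq start need not be the GENCODE 5′ end. Precision rests on 2 libraries per group.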

Additional observations from a re-analysis of the deposited data

Results flagged for a closer look

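The E2F1 line and the EV line differed in their doxycycline response for several of the 10 genes by a test of the difference itself (limma contrast of the 2 changes, Benjamini-Hochberg adjustment over 11208 genes). At 12 h the E2F1 change exceeded the EV change by 0.911 log2 for Ppat, 1.0826 for Gart, 0.5222 for Cad, 1.2777 for Umps and 2.114 for Mthfd2. At 6 h it exceeded it by 1.0659 for Ppat, 0.9102 for Gart and 1.0115 for Mthfd2. The EV changes, given above, were below 0 for each gene at 12 h and for Ppat and Gart at 6 h. They add to these differences without a rise in E2F1 cells. Both libraries of the E2F1 line stood above both EV libraries at the same time for each of these genes. This was already so at 0 h for each of them, so it does not describe the response. The share of all genes separated in this way was not counted. At 0 h limma called Gart, Cad, Umps and Mthfd2 higher in E2F1 cells, and Ppat was 0.44 log2 (adjusted p = 0.0687). The difference of the 2 changes was called for 5 of the 10 genes at 12 h and for 3 at 6 h. Over the whole table it was called for 50.5% of genes at 12 h and 34.5% at 6 h. Positive differences alone made up 27.3% and 22.2% of the table. In either direction together, the 10 genes were thus called about as often as the whole table.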

How the results depend on the processing

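Over 1173 recomputed log2 changes of the 10 genes, 1109 kept direction and side of the threshold. Of the rest, 37 lost and 9 gained a call, and 18 changed sign. Fits that left out single libraries are not in this tally, since most such libraries lay outside the groups compared. Part of the agreement was fixed in advance. The filter removed no gene, and a replicate block leaves the log2 changes as they were. Genes not called entered the tally for only some comparisons. The 2 EV calls at 2 h of doxycycline were 0 with no trend and 0 to 3 on leaving out single libraries, the EV count at 12 h was 0 to 1, the serum steps gave 3 to 5 (2 to 6 h) and 3 to 7 (6 to 12 h), and the lines at 0 h gave 3 with only the groups compared and 3 to 8 on leaving out libraries; the cause was not tested beyond the smaller number of libraries. Values that changed sign were all of genes not called as reported. With quantile normalization these were, at 6 h in the E2F1 line, Cad -0.10, Impdh2 -0.16, Paics -0.11 and Shmt2 -0.12; at 12 h Impdh2 -0.21; at 6 h of serum Impdh2 -0.21; for E2F1 minus EV at 6 h Cad -0.0616, Impdh2 -0.0603, Paics -0.0666 and Shmt2 -0.212; and at 12 h Atic -0.11 and Impdh2 -0.11. With equal totals they were Impdh2 -0.0197, Paics -0.0515 and Shmt2 -0.0077 (E2F1, 6 h), Impdh2 -0.0502 (E2F1, 12 h) and -0.13 (serum, 6 h), and Shmt2 -0.10 (E2F1 minus EV, 6 h). These scalings moved the all-gene median by up to -0.1168 in the E2F1 line and -0.1155 in E2F1 minus EV. Leaving out single libraries gave ranges across 0: Shmt2 -0.1121 to 0.3303 (E2F1, 6 h), Impdh2 -0.0583 to 0.0742 (E2F1, 12 h) and -0.0105 to 0.1713 (serum, 6 h); for E2F1 minus EV, Adsl -0.187 to 0.0108, Atic -0.1837 to 0.0503 and Shmt2 -0.2163 to 0.2261 at 6 h, and Adsl -0.052 to 0.0495, Atic -0.0464 to 0.1876 and Impdh2 -0.0201 to 0.1617 at 12 h; and for E2F1 minus serum at 12 h Mthfd2 -0.639 to 0.1414. In these fits the lone library of a group is assumed to vary like the other groups.

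Replicate numbers were not taken as pairing the libraries, since the labels do not say so and not every pair of groups passed the check: deviations of same-numbered libraries correlated at -0.2767 to 0.4549 over 55 pairs of groups (median 0.0314, 18 over 0.1). Among the 0, 6 and 12 h doxycycline groups, however, all correlations within a line were over 0.1 (0.1421 to 0.3569 in the E2F1 line, 0.3032 to 0.4549 in the EV line), while those with the 2 h group of the same line were below 0. With a replicate block the E2F1 counts at 6 and 12 h were again 4 and 6, those of E2F1 minus EV 3 and 5, the 12 h serum count 10, and the serum step from 6 to 12 h gave 7 calls in place of 6; the block changed no other count.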

Other observations

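Salvage enzymes remake nucleotides from nucleosides and bases. Of 16 such genes, 9 rose and 5 fell at 12 h in the E2F1 line (31.8% of all genes were called higher and 29.7% lower) and 11 rose and 4 fell at 12 h of serum (36.0% and 29.7%), with median changes of 0.55 and 0.68 log2 against -0.02 and 0.05 over all genes. Dck, deoxycytidine kinase, rose by 2.80 log2 in the E2F1 line (limma adjusted p = 2.27e-10) and 2.09 with serum, and Tk1, thymidine kinase, by 2.69 and 2.11. Hprt, which salvages hypoxanthine and guanine, rose by 1.40 and 1.12. Aprt, which salvages adenine, fell by 0.90 in the E2F1 line and rose by 0.92 with serum, a difference of -1.82 (adjusted p = 1.91e-09). Of 9 nucleotide breakdown genes, 4 rose and 4 fell in the E2F1 line, and 5 rose and 2 fell with serum. Nt5c2, a cytosolic nucleotidase, rose by 0.87 in the E2F1 line, and Xdh and Ampd3 fell in both systems, by -0.76 and -0.84 with E2F1 and by -1.004 and -0.94 with serum.

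Folate handling split between the systems. Slc19a1, the reduced folate carrier, fell by 0.83 log2 at 12 h in the E2F1 line and rose by 1.49 at 12 h of serum (difference -2.33, limma adjusted p = 4.71e-08). Fpgs, which adds glutamates to folates, fell by 0.66 and rose by 0.62 (difference -1.27, adjusted p = 1.09e-05). Ggh, which removes those glutamates, rose by 1.35 in the E2F1 line and fell by 0.62 with serum (difference 1.97, adjusted p = 1.69e-05). Of 9 glutamine, aspartate and asparagine supply genes, 1 rose and 4 fell in the E2F1 line (31.8% and 29.7% of all genes). With serum 7 rose and 0 fell (36.0% and 29.7% of all genes). Asns, asparagine synthetase, fell by 0.45 and rose by 1.48, Got1, an aspartate aminotransferase, fell by 0.56 and rose by 0.95, Gpt2, an alanine aminotransferase, fell by 0.89 in the E2F1 line, and Glul, glutamine synthetase, rose by 0.99 with serum.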
